A study of Mus musculus with 7 samples.

Results

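Of 15931 genes tested in HopX-positive cells of the mouse brain, 2017 had both postnatal day 3 (P3) libraries outside the range of all 5 libraries of the other stages, with 1088 genes above every one of them and 929 below. These genes, picked by rank without a test, are described here, and the rule alone does not show a transient change. A gene entered the test when it reached 1 TPM (a transcript abundance corrected for length and scaled to the same total in every library) in at least 2 libraries, and the table held 24978 genes. RNA-seq had been done on cells sorted by fluorescence from the brains of C57BL/6 mice at P3 (n = 2, replicates 1 and 3), embryonic day 15 (E15, n = 2) and adulthood (n = 3). The labels name no other genotype or treatment, call the cells neural progenitor cells, and do not give the brain region, the sex or age of the animals, how HopX was detected, or whether animals were pooled. Region and stage therefore cannot be told apart. The replicates are not said to be separate animals, and the p-values then reflect the scatter among these libraries alone, which may be technical.

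The product of Hopx is a small homeodomain protein that lacks DNA binding of its own, and it marks radial glia, neural stem cells and astrocytes. In the first postnatal days radial glia of the mouse forebrain end neurogenesis, and their descendants become astrocytes, ependymal cells and adult neural stem cells. Ependymal cells line the ventricles and carry tufts of motile cilia, whose moving core, the axoneme, is built from microtubules, dynein arms, radial spokes and a central pair. Genes for these parts, for the matrix and lipid supply of glia, and for cell types that a sort could also hold were examined as lists. The lists were chosen with earlier results of these data known, so the shares of members in them are a description.

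Each library's values summed to between 998450 and 999193, and between 13483 and 14445 genes reached 1 TPM in each. TPM keeps no record of read number, so neither depth nor counting error can be stated. Genes listed at 0 made up 21.21% and 19.62% of the table in the P3 libraries, 19% and 20.05% in those of E15, and 31.43%, 28.39% and 26.49% in adult ones. Hopx was at 171 and 112 TPM at P3, 62.9 and 60.5 TPM at E15 and 220, 249 and 230 TPM in the adult, and so was no member. Progenitor genes were present at P3, with Sox2 at 51.9 and 41.6 TPM, Pax6 at 97.0 and 132 TPM, Vim at 471 and 562 TPM and Nes at 4.63 and 14.6 TPM in replicates 1 and 3. The P3 libraries differed from each other. Astrocyte markers summed to 7941 TPM in replicate 1 and 5074 TPM in replicate 3, and immature neuron genes to 3357 and 6310 TPM. All 4 Y-linked genes examined were lower at P3 than in every other library (values with the genes below). The part of these differences in the results was not tested. In bulk RNA, fewer cells of a type and less RNA per cell cannot be told apart.

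P3 was compared with the average of the E15 and adult means, and with each stage, on the log2(TPM + 1) scale, which understates the change of genes with low values. A gene is said to be called against the average, or against both stages, when its Benjamini-Hochberg adjusted p in limma, taken over all genes tested, was under 0.05. For both stages the larger of the p-values against E15 and against the adult was adjusted. The rule and the tests use the same values, so the number of members that pass is a description. That the P3 libraries of a member lie apart from the others follows from the rule. Of all genes tested, 2.17% (345) were called higher at P3 than the average and 0.722% (115) lower, and 237 of the former and 63 of the latter were members. Of the 1088 members above, 117 were under 1 TPM in all 5 other libraries, so that they passed the filter only through P3 and had to differ, and 60 of the 237 called are such genes. Against both stages, 0.188% (30 genes) were called above and 0.00628% (1 gene, Gm6055) below. At an unadjusted p under 0.05 for both stages there were 418 genes above and 212 below. By the rule alone, 6.83% of the genes tested lay above and 5.83% below.

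Many members differed little from the nearer stage. The smaller of a gene's log2 differences from E15 and from the adult, called its smaller step here, had a median of 0.55 among members above and -0.52 among members below. It was under 0.5 in size for 514 members above and 449 below. It reached 1 for 297 above and 104 below, and 2 for 101 above and 3 below, so the large differences lay on the side of genes high at P3. Over all members above, the level at P3 had a median of 27.8 TPM, against 5.22 TPM for members below. The rule itself picks genes high or low at P3, so this gap is a description. With a smaller step of at least 2 in size, 33 of the 101 above and all 3 below had a mean under 10 TPM at P3. Among members above, the E15 level was the nearer to P3 for 713 and the adult level for 346. At the edge of the rule, Dnmt3b just entered, with 2.10 and 2.08 TPM at P3 and 2.08 TPM in the highest other library. Slfn9 just missed, with 12.59 TPM in its lower P3 library and in an E15 library.

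**Figure D1:**
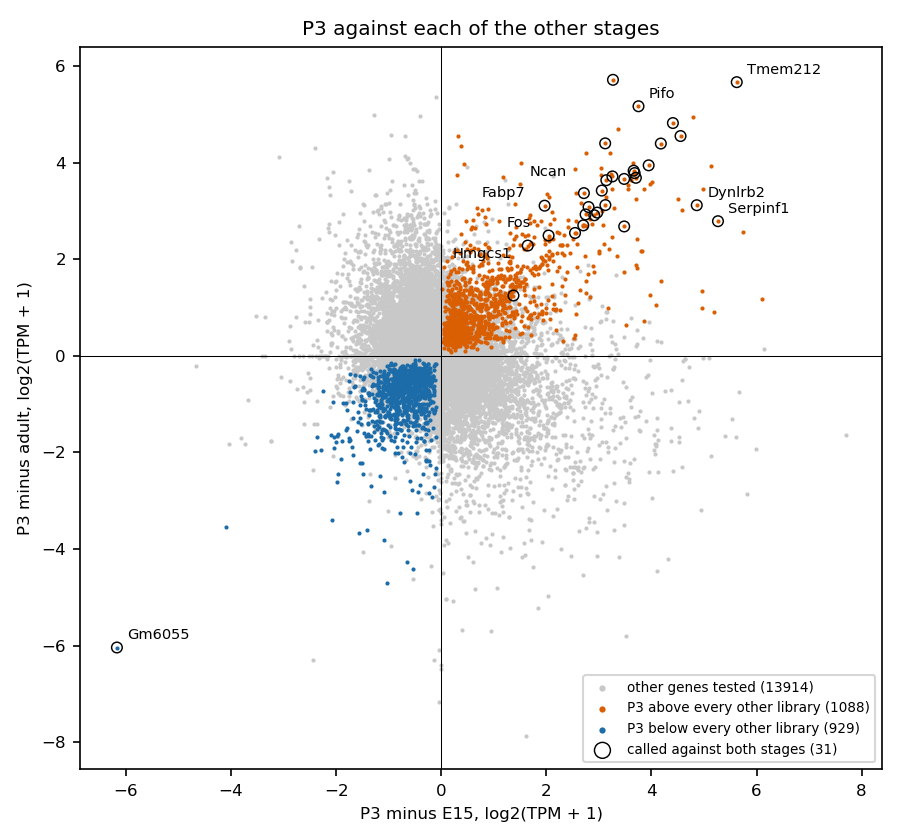
Each point is a gene tested, placed by its log2(TPM + 1) difference of P3 from E15 (horizontal) and from the adult (vertical), with members above in orange, members below in blue and genes called against both stages circled. The 1088 members above reach further from the origin than the 929 below, where Gm6055 stands alone near -6 on both axes.

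The calls rest on few libraries. Without either E15 library or either P3 library no gene was called above both stages, and without Adult replicate 1, 2 or 3 the count was 18, 12 and 9. The first 4 of these fits leave a stage with 1 library, which is then assumed to vary like the others. Of the 300 members called against the average, 27 were still called without P3 replicate 1, 108 without P3 replicate 3, 89 and 50 without E15 replicates 1 and 2, and 239, 240 and 196 without Adult replicates 1, 2 and 3. Of the 24 genes above both stages that are named below by rule, 15 were called against the average without each of the 7 libraries in turn. These were Tmem212, Dmkn, Fam216b, Got1l1, Pifo, Ppp1r32, Tctex1d4, Anxa1, Tm4sf1, Spaca9, Calml4, Serpinf1, Ncan, Vtn and Fabp7. The other 9, Odf3b, Cfap161, Dynlrb2, Smim5, Higd1b, Ccdc153, Hmgcs1, Egr1 and Fos, lost the call only without P3 replicate 1. In 782 of the 1088 members above, and in 24 of the 30 called above both, P3 replicate 3 was the lower of the P3 libraries. Over those members the median log2 difference of replicate 3 from replicate 1 was -0.15, against 0.05 over all genes tested.

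Of the 30 genes called above both stages, 7 are on the ependymal and cilium lists, and 1 of them, Tmem212, had the largest smaller step. Tmem212, a membrane protein gene used as a marker of ependymal cells, was at 46.7 and 62.0 TPM in the P3 libraries, 0.237 and 0 TPM in those of E15, and 0, 0 and 0.250 TPM in adult ones. Both P3 libraries stood far above the other 5, which were at or near 0. Its log2 difference was 5.62 from E15 (SE 0.38) and 5.67 from the adult (SE 0.35; limma, Benjamini-Hochberg adjusted p = 0.00512 against both). Tmem212 passed the filter only through P3, however, and so had to differ. Dynlrb2, for a light chain of dynein motors, was at 236 and 128 TPM in the P3 libraries, 3.33 and 7.35 TPM in those of E15, and 16.2, 23.3 and 18.4 TPM in adult ones. The P3 libraries lay above the others by the rule, and the adult kept more of it than E15. The log2 difference was 4.86 from E15 and 3.12 from the adult (limma, Benjamini-Hochberg adjusted p = 0.0259 against both).

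Of 19 genes on the ependymal list, 14 lay above every other library (73.7%) and none below. Of the list, 13 were called higher than the average, 6 were above both stages, and the median difference from the average was 1.87, against 0.03 over all genes tested. Tm4sf1, a tetraspanin-like membrane protein gene, was at 84.7 and 77.8 TPM in the P3 libraries, 9.59 and 5.88 TPM in those of E15, and 0.601, 0.810 and 0.315 TPM in adult ones. Ccdc153 was at 46.7 and 46.3 TPM in the P3 libraries, 4.42 and 8.22 TPM in those of E15, and 4.91, 5.57 and 5.23 TPM in adult ones. The P3 libraries agreed closely with each other for both genes, and for Tm4sf1 the adult lay below E15. Calml4, a calmodulin-like gene, was at 25.1 and 20.3 TPM, then 2.13 and 1.36 TPM, then 0, 0.195 and 0.163 TPM in the same order. Anxa1, a phospholipid-binding protein gene, was at 14.9 and 9.15 TPM in the P3 libraries, 0 and 0.291 TPM in those of E15, and listed at 0 in all adult ones. Odf3b was at 16.2 and 9.04 TPM in the P3 libraries, 0 and 0.891 TPM in those of E15, and listed at 0 in adult ones. For these genes too the P3 range lay apart from every other library by the rule (adjusted p against both between 0.0228 and 0.0454, limma, Benjamini-Hochberg). Among them, Anxa1 and Odf3b passed the filter only through P3 and so had to differ. Other ependymal members varied within the adult group. Meig1 was at 59.9 and 33.0 TPM in the P3 libraries, 0 and 0.682 TPM in those of E15, and 0, 7.82 and 2.03 TPM in adult ones, and Fam183b was at 81.2 and 49.3, 0.454 and 1.92, and 31.0, 13.2 and 35.2 TPM. Both were called against the average and neither against both stages (limma, Benjamini-Hochberg adjusted p = 0.222 and 1), and the call of Meig1 was lost without either E15 or either P3 library. Rarres2 and S100b, also on the list, were highest in the adult. The count of called list members was between 4 and 13 when each library was left out in turn, lowest without P3 replicate 1.

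Lists for parts of the axoneme held smaller shares of members. Of 26 genes of the radial spokes, central pair and nexin link, 8 lay above and none below, 5 were called higher, and the median difference was 1.07. The list summed to 881 and 509 TPM at P3, 224 and 237 TPM at E15 and 447 to 556 TPM in the adult, so P3 and the adult overlapped. Nme7 and Rsph9 had the highest means of the list and were no members. Rsph9 was at 183 and 85.0 TPM at P3, at most 33.7 TPM at E15 and 181 to 217 TPM in the adult. Rsph1, a radial spoke head gene, was at 36.5 and 15.2 TPM in the P3 libraries, 0.847 and 0.256 TPM in those of E15, and 4.76, 0.459 and 0 TPM in adult ones. Enkur, a sperm and cilium protein gene, was at 64.4 and 41.6, 10.8 and 14.4, and 12.3, 11.0 and 6.26 TPM in the same order. Tekt1, a tektin of ciliary microtubules, was at 32.6 and 19.6, 4.63 and 5.52, and 2.17, 7.10 and 3.66 TPM. Each of these was called against the average (limma, Benjamini-Hochberg adjusted p = 0.0265, 0.0134 and 0.0278), and the calls of all 3 were lost without either E15 or either P3 library (adjusted p between 0.0685 and 0.279), that of Tekt1 also without Adult replicate 3 (0.0561). Without any of these E15 and P3 libraries no gene of this list was called. Of 13 axonemal dynein arm genes, 4 lay above and 2 were called higher, with a median of 0.48, and neither call was made without P3 replicate 1. Dnaic1, a dynein intermediate chain gene on that list, was instead at 2.86 and 2.995 TPM at P3, with adult libraries at 29.8, 35.9 and 31.1 TPM. Of 8 genes for the cytoplasmic assembly of dynein arms, 5 lay above, with a median of 0.92, and none was called (3 at an unadjusted p under 0.05). Their levels were low, as for Zmynd10 at 5.92 and 2.34 TPM at P3 and at most 0.972 TPM elsewhere.

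Regulators of multiciliation gave few members. Of 11 tested, 1 lay above (9.09%, near the 6.83% of all genes) and none was called (limma; 2 higher and 0 lower at an unadjusted p under 0.05). The member was Deup1, a gene for centriole amplification, at 19.2 and 2.50 TPM at P3 and at most 0.683 TPM in the other libraries. Foxj1, the master regulator of motile cilia, was at 0.596 and 0.277 TPM at P3 and at most 0.0988 TPM elsewhere, and did not reach the filter. Among RFX factors, which bind the X-box of cilium genes, Rfx3 was at 16.1 and 19.8 TPM at P3 and 16.8 to 26.2 TPM in the other libraries, so the groups overlapped. Of 30 genes of intraflagellar transport and the BBSome, which primary cilia share, 3 lay above (10%), none was called (5 higher and 1 lower at an unadjusted p under 0.05), and the median was 0.14. Summed over the list, they stood at 1471 and 1473 TPM at P3, 1458 and 1372 TPM at E15 and 1149 to 1262 TPM in the adult. Summed ependymal list genes stood at 1201 and 906 TPM at P3, against 353 and 425 TPM at E15 and 582 to 715 TPM in the adult.

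Of the genes above both stages, 7 hold GTTGCC, or its reverse complement GGCAAC, in the 250 bases before the start of the gene. The promoters of 5 of them, picked after their values were seen because the genes are known from cilia or ependymal cells, are shown, and the other 2 are Dmkn, known from skin, and 1700012B09Rik. These letters form part of the X-box, and capitals mark them below. The stretches are from RefSeq on GRCm38.p6, read in the direction of the gene, at chr9:44240427-44240676 (Ccdc153, plus strand), chr7:83794840-83795089 (Cfap161, minus strand), chr8:116504765-116505014 (Dynlrb2, plus strand), chr3:106001498-106001747 (Pifo, minus strand) and chr2:28699652-28699901 (Spaca9, minus strand).
Ccdc153: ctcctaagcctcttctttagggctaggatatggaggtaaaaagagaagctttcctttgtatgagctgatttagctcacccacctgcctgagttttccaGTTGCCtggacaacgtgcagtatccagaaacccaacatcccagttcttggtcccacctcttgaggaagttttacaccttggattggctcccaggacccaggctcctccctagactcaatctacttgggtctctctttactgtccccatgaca
Cfap161: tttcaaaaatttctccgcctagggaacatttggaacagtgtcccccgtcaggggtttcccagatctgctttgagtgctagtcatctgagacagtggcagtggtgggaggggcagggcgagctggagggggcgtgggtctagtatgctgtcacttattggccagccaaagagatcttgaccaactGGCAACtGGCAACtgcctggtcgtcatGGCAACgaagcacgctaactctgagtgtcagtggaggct
Dynlrb2: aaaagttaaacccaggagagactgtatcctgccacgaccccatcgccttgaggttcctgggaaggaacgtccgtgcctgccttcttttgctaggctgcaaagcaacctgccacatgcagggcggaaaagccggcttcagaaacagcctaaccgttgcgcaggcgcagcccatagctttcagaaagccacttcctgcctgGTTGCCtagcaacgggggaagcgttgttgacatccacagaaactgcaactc
Pifo: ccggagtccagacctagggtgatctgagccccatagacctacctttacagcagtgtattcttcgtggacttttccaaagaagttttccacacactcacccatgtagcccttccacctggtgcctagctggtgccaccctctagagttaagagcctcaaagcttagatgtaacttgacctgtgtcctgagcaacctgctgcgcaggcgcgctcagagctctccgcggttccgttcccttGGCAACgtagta
Spaca9: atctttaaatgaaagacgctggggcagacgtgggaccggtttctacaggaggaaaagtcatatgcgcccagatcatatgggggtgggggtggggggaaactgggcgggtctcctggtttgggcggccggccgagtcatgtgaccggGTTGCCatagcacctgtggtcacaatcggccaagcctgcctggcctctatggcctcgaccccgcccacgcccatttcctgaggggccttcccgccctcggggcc
The matches lie 152 bases before the start in Ccdc153, 66, 59 and 39 bases in Cfap161, 51 bases in Dynlrb2, 12 bases in Pifo and 104 bases in Spaca9. On either strand, 7 of the 24 genes above both stages with a promoter entry held the motif (29.2%), against 1357 of 10846 genes tested (12.5%) and 3195 of 27025 genes with a promoter entry (11.8%). Among genes of the cilium and ependymal lists, 12 of 24 members above held it (50%) and 8 of 32 genes that were not above (25%). It was in 115 of 789 members above (14.6%) and 62 of 590 members below (10.5%). A match is a string of letters and no evidence of binding.

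Of the 30 genes called above both stages, 17 were on no list, and those described next were not on the ependymal or axoneme lists. Pifo, a gene known from cilia, was at 43.5 and 38.2 TPM in the P3 libraries, 3.24 and 1.26 TPM in those of E15, and 0, 0.323 and 0.179 TPM in adult ones. Cfap161 and Spaca9, for proteins inside ciliary microtubules, were at 17.5 and 9.20 TPM and at 9.53 and 6.21 TPM at P3. In the other libraries Cfap161 was at most 0.607 TPM, and Spaca9 was listed at 0 in all 5. Tctex1d4, of the dynein light chain family, was at 11.2 and 14.7 TPM at P3 and at most 0.158 TPM elsewhere. Dmkn, which encodes dermokine, a secreted protein known from skin, was at 33.4 and 15.1 TPM at P3 and listed at 0 in all 5 other libraries. Got1l1, a relative of the cytosolic aspartate aminotransferase gene, was at 23.8 and 17.0 TPM at P3 and 0.356 TPM in the highest other library. Fam216b was at 37.5 and 22.4 TPM at P3 and at most 0.583 TPM elsewhere, Ppp1r32 at 17.3 and 10.1 TPM and at most 0.347 TPM, and Smim5 at 9.60 and 10.8 TPM and at most 0.814 TPM. For each gene of this paragraph the P3 libraries lay apart from all others by the rule (adjusted p against both between 0.0139 and 0.0392, limma, Benjamini-Hochberg). Of the 30 genes above both stages, 18 were at or under 1 TPM in all 5 other libraries and 7 of them were listed at 0 there. Those 18 passed the filter only through P3 and so had to differ. With a pseudocount of 0.1 in place of 1, which spreads the low values, 1 gene stayed above both stages.

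**Figure D2:**
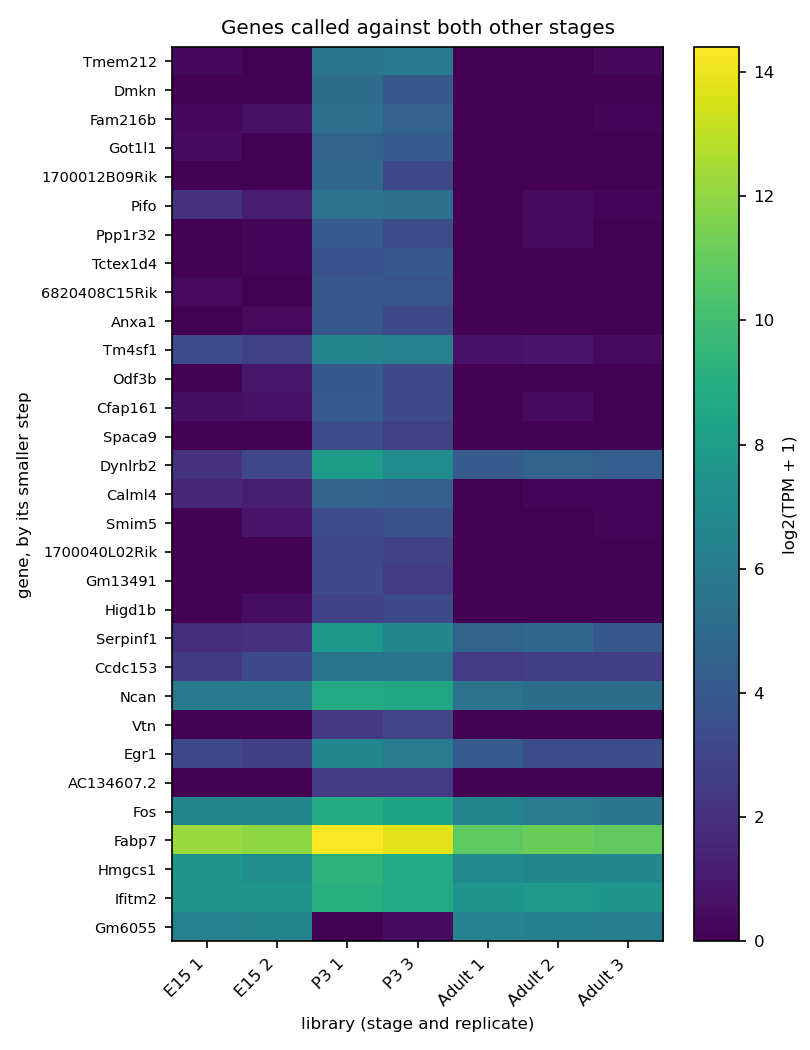
Rows are the 30 genes called above both stages and Gm6055, ordered by the smaller step, and columns are the 7 libraries, with color giving log2(TPM + 1). Tmem212 heads the list, and 18 of the genes above are at or under 1 TPM in all libraries outside P3.

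Fabp7, Ncan and Serpinf1 were among the more abundant genes called above both stages. Fabp7, the brain lipid-binding protein gene of radial glia, was at 21682 and 13691 TPM in the P3 libraries, 4829 and 4020 TPM in those of E15, and 1829, 2310 and 1874 TPM in adult ones. Both P3 values were far above those of E15, and the adult was lowest. The log2 difference was 1.97 from E15 (SE 0.22) and 3.11 from the adult (SE 0.20; limma, Benjamini-Hochberg adjusted p = 0.0228 against both). Ncan, which encodes neurocan, a chondroitin sulfate proteoglycan of the developing brain matrix, was at 406 and 373 TPM in the P3 libraries, 59.2 and 57.6 TPM in those of E15, and 44.6, 33.0 and 33.6 TPM in adult ones. E15 and the adult were close to each other and both far below P3 (log2 difference 2.71 and 3.37; limma, Benjamini-Hochberg adjusted p = 0.00569 against both). Serpinf1, for a secreted neurotrophic and antiangiogenic serpin, was at 204 and 106.5 TPM in the P3 libraries, 2.70 and 3.01 TPM in those of E15, and 22.8, 25.9 and 14.4 TPM in adult ones. Its adult level stayed above E15 (log2 difference 5.27 from E15 and 2.79 from the adult; limma, Benjamini-Hochberg adjusted p = 0.034 against both). Ifitm2, an interferon-induced membrane protein gene, had the smallest step of the 30, at 542 and 411 TPM at P3 against 181 to 222 TPM in the other libraries. The interferon and antigen presentation list had no member above or below.

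Fabp7 and Tnc were the only members among 22 radial glia and stem cell genes, of which 5 were called higher and none lower (median 0.23). Tnc, the matrix glycoprotein tenascin C, was at 187 and 109.5 TPM in the P3 libraries, 50.2 and 40.3 TPM in those of E15, and 22.8, 30.6 and 20.7 TPM in adult ones. Its P3 libraries lay above the others by the rule, and E15 lay above the adult. Tnc was called against the average (log2 2.08, SE 0.26, limma, Benjamini-Hochberg adjusted p = 0.00706) but not against both stages (0.146). Without E15 replicate 1 or 2 or P3 replicate 1 the call against the average was lost (limma, Benjamini-Hochberg adjusted p up to 0.112). Of 22 astrocyte markers 1 lay above (4.55%, near the 6.83% of all genes tested), Gfap. It was at 361 and 161 TPM in the P3 libraries, 6.20 and 0.736 TPM in those of E15, and 110, 105 and 105 TPM in adult ones. For Gfap, the intermediate filament gene of astrocytes, the lower P3 library exceeded every adult library, and the log2 difference was 6.10 from E15 and 1.17 from the adult. Its call against the average (limma, Benjamini-Hochberg adjusted p = 0.0111) was lost without either P3 library. Slc1a3, a glutamate transporter gene of astrocytes, lay between the stages, at 2243 and 1419 TPM at P3, at most 234 TPM at E15 and 4282 to 4570 TPM in the adult. Summed astrocyte markers stood at 993 to 1193 TPM at E15 and 21373 to 23730 TPM in the adult.

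Matrix and BMP genes gave a few members. Of 19 genes of collagens, laminins and the basement membrane 4 lay above (21.1%), 2 were called and none lay below (median 0.46). Nid1, the basement membrane linker nidogen 1, was at 13.8 and 8.19 TPM at P3, at most 2.68 TPM at E15 and at most 0.386 TPM in the adult (log2 2.69 against the average, limma, Benjamini-Hochberg adjusted p = 0.0103). Has2, a hyaluronan synthase gene, was at 10.4 and 6.46 TPM at P3 and at most 2.50 TPM elsewhere (log2 2.22, limma, Benjamini-Hochberg adjusted p = 0.0174). Of 14 BMP ligands and targets, 4 lay above (28.6%), 2 were called higher and 1 lower (median 0.10). Id3 and Id1, inhibitors of bHLH factors that BMP signaling induces, were both members. Id3 was at 1876 and 1254 TPM in the P3 libraries, 613 and 475 TPM in those of E15, and 417, 541 and 433 TPM in adult ones, while Id1 was at 206 and 128, 92.9 and 78.4, and 49.5, 56.0 and 57.0 TPM. Id2, a relative on the same list, was at 1411 and 874 TPM at P3 and 2576 to 2726 TPM in the adult, so it was no member. Neither Id gene was called against both stages (limma, Benjamini-Hochberg adjusted p = 0.0611 for Id3 and 0.523 for Id1), and the calls of Id3, Id1, Nid1 and Has2 against the average (adjusted p = 0.00516 and 0.0205 for the Id genes) were lost without E15 replicate 2 or P3 replicate 1. Has2 and Id1 also lost theirs without E15 replicate 1, and Has2 without P3 replicate 3.

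Immediate early genes formed another group. Of 18 tested, 8 lay above (44.4%) and none below, 4 were called higher, 2 were above both stages, and the median was 0.78. Fos, a subunit of the AP-1 factor, was at 459 and 317 TPM in the P3 libraries, 85.7 and 98.4 TPM in those of E15, and 90.4, 64.8 and 51.2 TPM in adult ones. Egr1, a zinc finger factor gene, was at 106 and 65.3 TPM in the P3 libraries, 7.71 and 5.51 TPM in those of E15, and 17.3, 10.1 and 10.1 TPM in adult ones. In both genes E15 and the adult were close and P3 stood apart (limma, Benjamini-Hochberg adjusted p = 0.0454 for Fos and 0.0345 for Egr1 against both). Egr2 was at 4.97 and 4.22 TPM at P3 and at most 0.659 TPM elsewhere (log2 2.25 against the average, limma, Benjamini-Hochberg adjusted p = 0.0114, lost without either P3 library), but it passed the filter only through P3 and so had to differ. Fosb, at 10.9 and 4.02 TPM at P3 and at most 1.70 TPM elsewhere, and the nuclear receptor gene Nr4a1, at 10.5 and 7.60 TPM at P3 and at most 4.76 TPM elsewhere, were not called (adjusted p = 0.0636 and 0.0724, limma, Benjamini-Hochberg). Klf4, Dusp1 and Arc were the other members. Jun, the partner of Fos, was at 16.2 and 12.5 TPM at P3, below both E15 libraries and above the adult. Npas4, Egr3 and Egr4 were at or under 0.533 TPM in every library. Without P3 replicate 1 no gene of the list was called, and 2 were called without P3 replicate 3.

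Genes of cholesterol synthesis formed a further group. Of 21 tested, 10 lay above (47.6%), 1 below, and 4 were called higher, with a median of 0.65 and 13 higher at an unadjusted p under 0.05. Hmgcs1, which makes HMG-CoA, was at 600.3 and 449 TPM in the P3 libraries, 187 and 146 TPM in those of E15, and 119, 93.1 and 107 TPM in adult ones, and was above both stages (log2 difference 1.65 and 2.28; limma, Benjamini-Hochberg adjusted p = 0.0351). Idi1, the isopentenyl diphosphate isomerase gene, was at 206 and 172 TPM in the P3 libraries, 85.9 and 63.9 TPM in those of E15, and 76.1, 83.0 and 74.9 TPM in adult ones. E15 and the adult overlapped for Idi1, and P3 stood apart (log2 1.30 against the average, limma, Benjamini-Hochberg adjusted p = 0.00864, lost without E15 replicate 2 or P3 replicate 1). Fdps and Cyp51 were the others called, at 400 and 382 TPM and at 114 and 96.6 TPM at P3. Sqle, the squalene epoxidase gene, was at 120 and 94.2 TPM at P3 against at most 72.0 TPM in the other libraries, and was not called (limma, Benjamini-Hochberg adjusted p = 0.051). Msmo1, an enzyme gene of a later step, was no member, at 585 and 394 TPM at P3 and 590 to 669 TPM in the adult. No list gene was called without P3 replicate 1, and 1 or 2 were without either E15 library, P3 replicate 3 or Adult replicate 3.

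**Figure D3:**
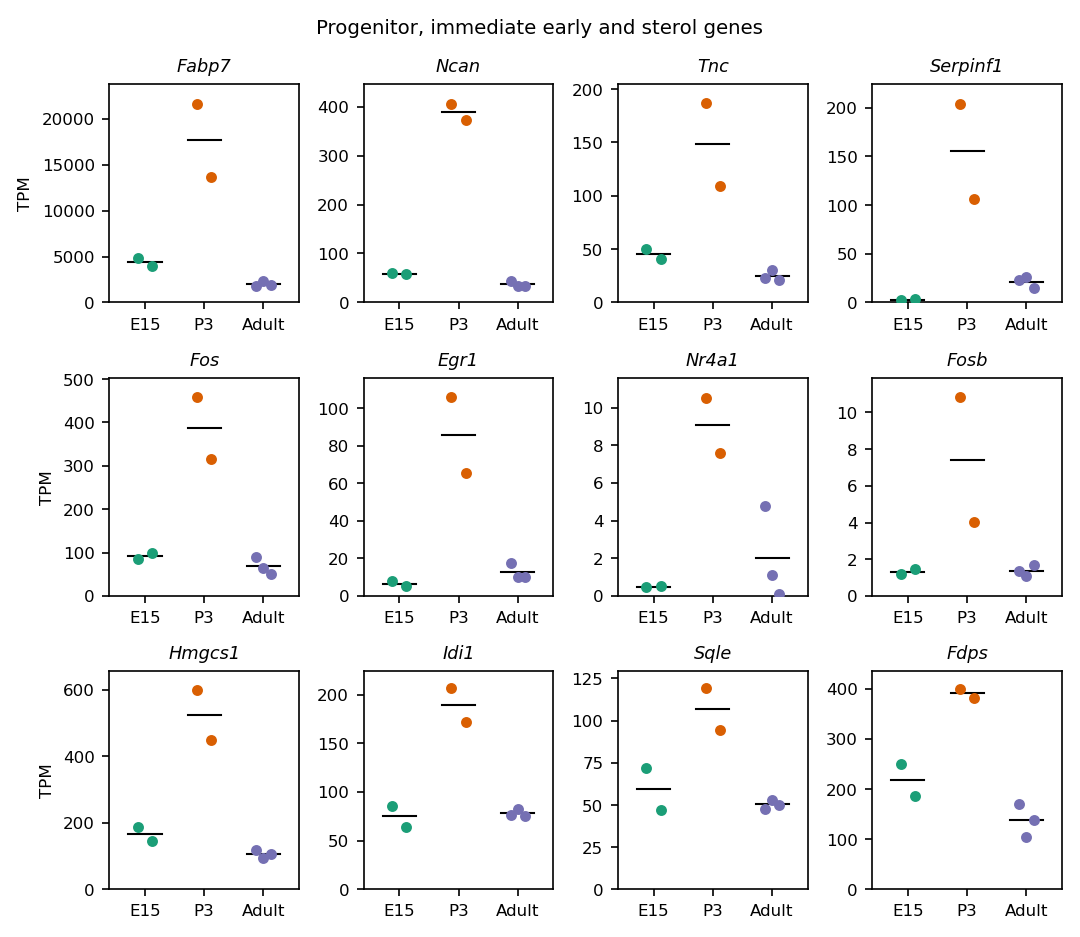
Each panel shows the TPM of a gene in the 7 libraries by stage (points) with the stage mean (line), on a linear axis from 0. P3 lies above both other stages in every panel.

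Genes of dividing cells held shares above that were near or under the 6.83% of all genes tested. Of 25 S phase genes 1 lay above (4%), Pcna, at 391 and 444 TPM at P3 and 367 and 369 TPM at E15. None of 26 rows of G2 and M phase genes lay above or below. The lists are short, so these counts are a description. The medians of the lists against the average were 0.76 and 1.11, against E15 alone -0.29 and -0.67, and against the adult alone 1.82 and 2.91, with summed G2 and M phase genes at 1940 and 3054 TPM at P3, 4479 and 3271 TPM at E15 and 212 to 377 TPM in the adult. Ccnd1, the cyclin of the G1 phase, was a member, at 11.2 and 6.88 TPM in the P3 libraries, 1.60 and 2.45 TPM in those of E15, and 0.822 to 1.17 TPM in adult ones (log2 2.02, limma, Benjamini-Hochberg adjusted p = 0.0205). That call was lost without either E15 or either P3 library (adjusted p between 0.0667 and 0.181). Intermediate progenitor and dentate granule genes likewise gave no member, and immature neuron genes gave 1 of 19 (5.26%), Gap43.

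Markers of mural cells, the pericytes and smooth muscle of vessels, were divided. Of 9 tested, 4 were no members, 5 lay above (55.6%), 3 were called and 2 were above both stages, with a median of 0.95 that was 0.27 with a pseudocount of 5. Vtn, the gene of the adhesion protein vitronectin, was at 4.33 and 6.96 TPM at P3 and listed at 0 in all 5 other libraries. Higd1b, a pericyte marker, was at 6.58 and 8.46 TPM at P3, 0 and 0.473 TPM at E15 and listed at 0 in the adult. Both Vtn and Higd1b passed the filter only through P3 and so had to differ. Rgs5, a regulator of G protein signaling in pericytes, was at 86.1 and 51.6 TPM in the P3 libraries, 9.03 and 5.42 TPM in those of E15, and 5.58, 12.5 and 11.5 TPM in adult ones. Vtn and Higd1b were above both stages (limma, Benjamini-Hochberg adjusted p = 0.0414 and 0.0392) and Rgs5 was not (0.0611), and the call of Rgs5 against the average was lost without E15 replicate 2 or either P3 library. Pdgfrb, the defining receptor of pericytes, was instead highest in the adult, at 4.56 and 2.46 TPM at P3 and 7.14 to 11.6 TPM there. Kcnj8, Abcc9, Anpep and Myh11 did not reach the filter. Summed mural markers stood at 165 and 131 TPM at P3, 93.7 and 84.1 TPM at E15 and 53.4 to 61.2 TPM in the adult. The endothelial markers Cldn5, Cdh5 and Tek were at or under 0.91 TPM in every library, and none of 8 endothelial genes tested was a member. Pecam1, an adhesion molecule of endothelium, was at 135.6 and 87.7 TPM at P3 and 87.7 to 186 TPM in the other libraries, so the groups overlapped. Slco1c1, a thyroid hormone transporter gene that is also on the thyroid hormone list, lay between the stages, at 251.5 and 144 TPM at P3, at most 16.4 TPM at E15 and at least 225.5 TPM in the adult. It was the list gene called higher than the average (limma, Benjamini-Hochberg adjusted p = 0.0219), a call lost without E15 replicate 2, Adult replicate 3 or either P3 library. The endothelial list summed to 398 and 240 TPM at P3, 117 and 200 TPM at E15 and 388 to 394 TPM in the adult. Pecam1 and Slco1c1 together made up most of the sum in every library, so it says little about the other genes of the list.

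Other cell types gave fewer members. Of 9 choroid plexus genes 2 lay above, Calml4, which is also on the ependymal list, and Cldn2 at 2.62 and 1.04 TPM. Ttr, the main transcript of choroid plexus, was at 11.8 and 2.91 TPM at P3 and up to 8.34 TPM in the adult, and Aqp1, Kcne2 and Slc4a5 were at or under 0.198 TPM at P3. The choroid plexus list summed to 193 and 89.5 TPM at P3, 36.6 and 29.2 TPM at E15 and 88.9 to 106 TPM in the adult. Within these sums Enpp2 alone was at 121.8 and 42.3 TPM at P3, 5.43 and 6.90 TPM at E15 and 59.4 to 89.25 TPM in the adult. Olig1 and Olig2, factors of the oligodendrocyte lineage, were the members among 8 progenitor markers of that lineage. Olig1 was at 32.1 and 16.1 TPM in the P3 libraries, 0.984 and 0 TPM in those of E15, and 10.4, 10.3 and 10.5 TPM in adult ones, and was called against the average (log2 2.57, limma, Benjamini-Hochberg adjusted p = 0.0135), though not without E15 replicate 2 or either P3 library. Pdgfra and Sox10, which define oligodendrocyte progenitors, were at or under 0.289 TPM at P3. None of 18 microglia markers lay above. Their sum was highest in the adult, with 164 and 101 TPM at P3, 10.8 and 13.9 TPM at E15 and 567 to 707 TPM in the adult. Of 16 genes of early postnatal activated microglia, 3 lay above (18.8%), Lgals3, Fabp5 and Clec7a. Fabp5, a fatty acid-binding protein that glia also make, was at 2239 and 1229 TPM in the P3 libraries, 474 and 535 TPM in those of E15, and 945, 912 and 919 TPM in adult ones. Lgals3, the gene of galectin 3, was at 6.89 and 7.33 TPM at P3 and up to 2.52 TPM elsewhere. The part of cells of these types in the results was not tested.

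Members below every other library differed by smaller steps, with a clear exception. Gm6055 (ENSMUSG00000062081), a predicted gene, was at 0 and 0.334 TPM in the P3 libraries, 77.5 and 87.3 TPM in those of E15, and 81.1, 73.5 and 70.8 TPM in adult ones. It was high at about the same level in all 5 other libraries and nearly missing at P3, with a log2 difference of -6.17 from E15 and -6.04 from the adult (limma, Benjamini-Hochberg adjusted p = 9.74e-05 against both). Zfp990, a zinc finger gene, was at 0.155 and 1.64 TPM in the P3 libraries, 22.5 and 36.9 TPM in those of E15, and 18.4, 20.3 and 19.8 TPM in adult ones. It followed the same pattern and was called against the average (log2 -3.82, SE 0.37, limma, Benjamini-Hochberg adjusted p = 0.00288) but not against both stages (0.141). Both calls against the average held without each library in turn. Selplg, the gene of a P-selectin ligand, was at 3.29 and 4.06 TPM in the P3 libraries, 14.9 and 19.6 TPM in those of E15, and 24.8, 24.3 and 24.3 TPM in adult ones (log2 -2.20 against the average, limma, Benjamini-Hochberg adjusted p = 0.00418; 0.0745 when P3 replicate 1 was left out).

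Several widely expressed genes were lower at P3 than the average. Map4, a microtubule-associated protein gene, was at 323 and 424 TPM in the P3 libraries, 851 and 1128 TPM in those of E15, and 1214, 1222 and 999 TPM in adult ones. Med25, a Mediator subunit gene, was at 17.2 and 22.4 TPM at P3, at least 66.5 TPM at E15 and 55.7 to 82.5 TPM in the adult. Mettl3, the catalytic subunit of the RNA m6A methyltransferase, was at 57.6 and 87.1 TPM at P3, 175 and 195 TPM at E15, and 146 to 215 TPM in the adult. In each the P3 libraries lay below all 5 others by the rule. The log2 differences against the average were -1.51, -1.89 and -1.29 (limma, Benjamini-Hochberg adjusted p = 0.00418, 0.00787 and 0.0231). Gtpbp4, a GTPase gene of ribosome assembly, and Brms1l, of a histone deacetylase complex, had log2 differences of -1.29 and -1.64, and Fzd2, a Wnt receptor gene, -1.65. None of these was called against both stages, and the call against the average of each gene in this paragraph was lost when P3 replicate 1 was left out (limma, Benjamini-Hochberg adjusted p between 0.082 and 0.221). Except for Map4, these calls were also lost without E15 replicate 2.

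All 4 Y-linked genes examined lay below, a list added after their values were seen. Ddx3y was at 0.544 and 3.58 TPM in the P3 libraries, 6.26 and 7.43 TPM in those of E15, and 30.9, 35.7 and 31.9 TPM in adult ones. Eif2s3y was at 2.29 and 10.7 TPM, 13.2 and 18.4 TPM, and 67.8, 66.3 and 90.6 TPM in the same order. Replicate 1 was the lower of the P3 libraries in all 4 genes, and their sum was 8.65 and 26.1 TPM at P3, 40.6 and 60.7 TPM at E15 and 140 to 163 TPM in the adult. Of these genes 3 were called lower than the average, Kdm5d being the exception (limma, Benjamini-Hochberg adjusted p = 0.0778), and none was called without either E15 library or P3 replicate 1. The sex of the animals is not given, so the mix of sexes and the level per cell cannot be told apart.

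**Figure D4:**
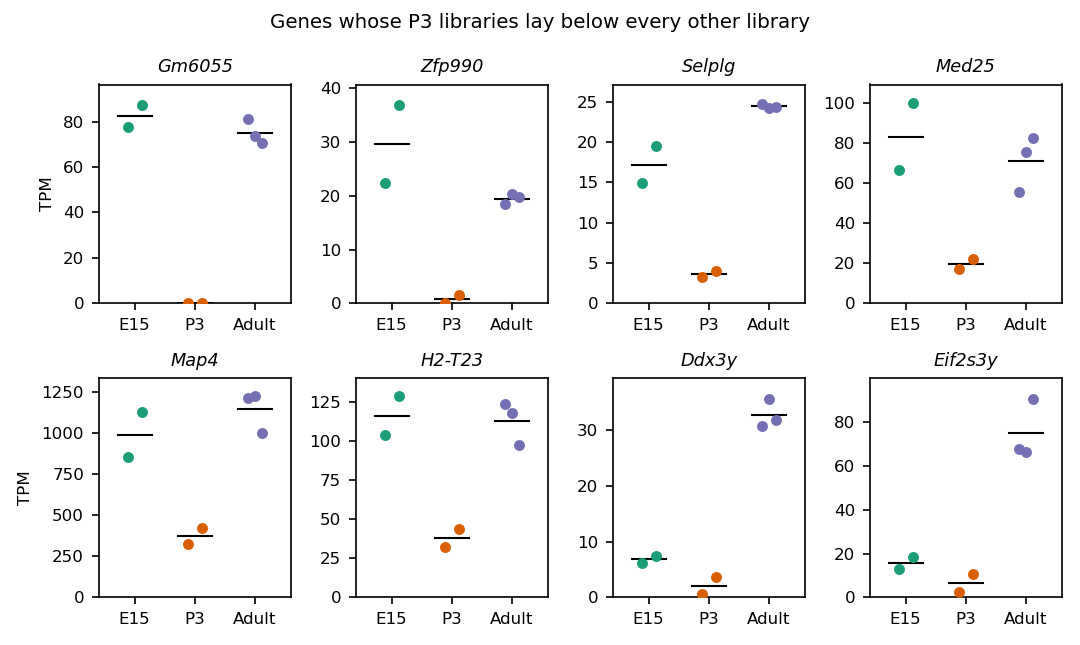
Each panel shows the TPM of a gene whose P3 libraries lay below every other library, by stage (points) with the stage mean (line), on a linear axis from 0. Gm6055 and Zfp990 are near 0 at P3, and Ddx3y and Eif2s3y also differ between E15 and the adult.

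The other lists differed in their shares of members. Of 33 lists, 12 had over 20% of their tested genes above, 12 had none above, and 11 had no gene called either way. Over the distinct genes of all lists, 83 of 499 lay above, against 1088 of all 15931 genes tested (6.83%). Of 7 fibroblast and meningeal genes, Col1a2 and Ogn lay above (28.6%), and none was called. Sonic hedgehog genes (10 tested) and Wnt targets and antagonists (17 tested) had no member. None of them was called (limma, 0 and 2 higher at an unadjusted p under 0.05, 0 lower). Over all genes tested 6.83% lay above and 5.83% below, so lists this short may hold none. Of 12 genes of the insulin-like growth factor system, Igfbp5 and Igfbp3 lay above and Insr and Irs2 below. Igfbp5, a binding protein of these growth factors, was at 36.1 and 19.1 TPM in the P3 libraries, 4.73 and 6.07 TPM in those of E15, and 10.3, 9.55 and 11.8 TPM in adult ones (log2 1.67 against the average, limma, Benjamini-Hochberg adjusted p = 0.0295), a call lost without Adult replicate 3 or any E15 or P3 library. Retinoic acid and thyroid hormone genes gave 2 members below of 15, Aldh1a3, a retinoic acid-making enzyme gene, and Rarb, a retinoic acid receptor gene, neither of them called. Aldh1a3 was at 1.48 and 2.57 TPM in the P3 libraries, 6.56 and 6.496 TPM in those of E15, and 6.79, 4.03 and 6.01 TPM in adult ones. Red blood cell markers were high in E15 replicate 1 alone, with a sum of 5143 TPM against 23.4 to 95 TPM in the other libraries, and gave no member.

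**Figure D5:**
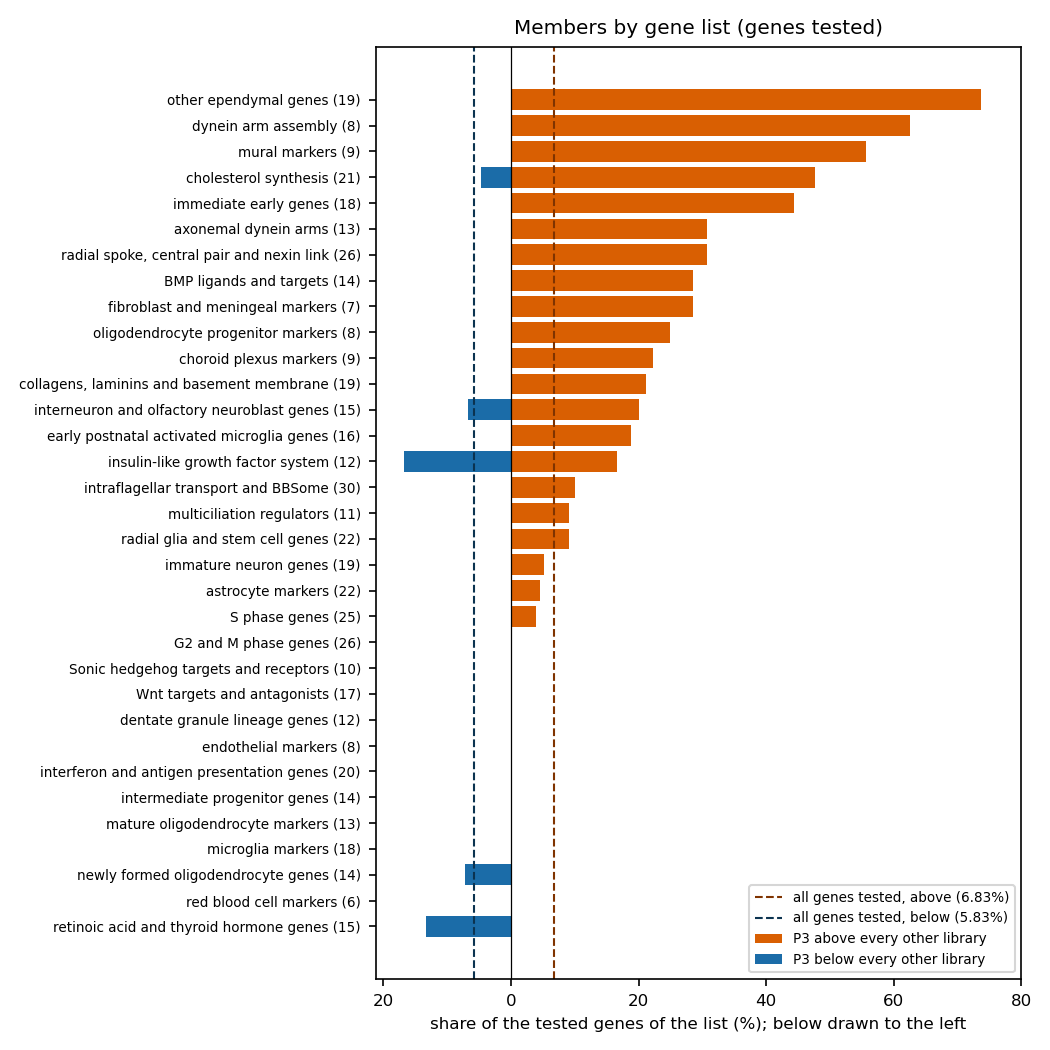
Bars show, for each of the 33 lists, the percent of its tested genes (number in brackets) whose P3 libraries lay above (orange, right) or below (blue, left) every other library, with dashed lines at 6.83% and 5.83% for all genes tested. The ependymal list leads at 73.7%, and 12 lists have no gene above.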

How the data were processed

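RNA from HopX-positive cells was measured in 7 libraries. RNA was purified on RNeasy columns, per the labels' protocols. The submitters' processing notes name bcl2fastq, Bowtie and mm9. The quantification program and gene models are not named in the sources used here. TPM values, with a column for each library, were deposited by the authors. These hold no read depth, and a count model could not be applied. A value of exactly 0 may be an estimate that failed and is written as listed at 0.

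Libraries were grouped by labelled stage. The fit was made in limma 3.58.1 under R 4.3.3 on log2(TPM + 1), for genes reaching 1 TPM in 2 or more libraries, by lmFit followed by trended eBayes, stage being the only term (4 residual degrees of freedom, prior 4.27). P3 was contrasted with the average of the other stage means and with each of them, and these contrasts share the P3 libraries. For both stages the larger two-sided p was kept where both differences had the same sign, and was adjusted separately above and below. The test was also run on simulated data in which genes differed only at P3. Genes that rise or fall from E15 to the adult were not simulated, so that check does not cover them.

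The members and the 33 lists were chosen with earlier results of these data known. Named by rule were the 20 genes above both stages with the largest smaller step, up to 5 such members of each list (or else the 2 with the highest mean), and Hopx, leaving out clone-like symbols. No gene below met the rule. All genes below, Ifitm2, and other genes outside the rule were named after their values were seen, and the lists of neuropeptide and Y-linked genes were added then. Of the list names, 5 were matched through older symbols in RefSeq (GRCm38.p6). Promoters come from RefSeq on that build, while the files use mm9, so no other coordinates are printed. Rows with identical values hold 18 members, which are uncertain, as are rows that share a symbol. Some genes of the lists are counted but not reported here by name.

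Alternatives were pseudocounts of 0.1 and 5, no filter, median-of-ratios scaling, a filter on mean TPM (5 or more), no trend, a replicate block, equal weights for the 5 other libraries, a minimum change of 1, summed rows of a symbol, and each library left out.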

Additional observations from a re-analysis of the deposited data

How the results depend on the processing

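Counts are given in the order higher and lower than the average, above and below both stages, with 345, 115, 30 and 1 as reported. They were 239, 87, 1 and 1 with a pseudocount of 0.1, 370, 137, 50 and 1 with a pseudocount of 5, and 233, 87, 40 and 1 with no filter. With a mean of at least 5 TPM they were 415, 179, 22 and 2, and the members below by the rule were 584 in place of 929. They were 262, 96, 29 and 1 with median-of-ratios scaling, and 190, 69, 32 and 1 without the trend. Weighting the 5 other libraries equally gave 549 higher and 245 lower. Of the 30 genes above both stages, 28 were shared with median-of-ratios scaling, 29 with a pseudocount of 5, 16 with no filter and 1 with a pseudocount of 0.1. A minimum change of 1 left 297 members above and 104 below.

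Leaving out each library in turn gave 29 to 310 genes higher and 13 to 105 lower than the average, 0 to 18 above and 1 to 3 below both stages, and by the rule 1237 to 2083 members above and 1131 to 1994 below. The lowest counts of calls against the average came without P3 replicate 1. No call of a named gene changed direction under any alternative run.

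Same-numbered replicates of different stages did not deviate together over all genes tested (correlations of deviations -0.023 to 0.021), and the main fit did not pair them. A correlation over all genes cannot exclude a shared batch that acts on some of them. With the replicate block the counts were 120, 37, 0 and 1.

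Depth is unknown, and 2 to 3 libraries per stage limit every call.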

Other observations

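Neuropeptide precursor genes, a list added after the data were seen, were often highest at P3. Of 13 tested, 8 lay above every other library, 5 were called higher than the average and none lower, with a median log2 difference of 1.13 against 0.03 over all genes. Npy, for neuropeptide Y, was at 23.1 and 27.6 TPM in the P3 libraries, 0.349 and 0 TPM in those of E15, and 2.95, 0 and 4.41 TPM in adult ones. Pdyn, the dynorphin precursor, was at 20.7 and 13.4 TPM, 0.0518 and 1.18 TPM, and 3.20, 0 and 0 TPM in the same order. Sst, for somatostatin, and Sct, for secretin, were listed at 0 in all 5 other libraries. They were at 1.26 and 2.69 TPM and at 6.18 and 2.40 TPM at P3. Nts, for neurotensin, was at 1.68 and 3.01 TPM at P3 and at most 0.470 TPM elsewhere. Sst, Sct and Nts passed the filter only through P3 and so had to differ. All 5 calls were lost without P3 replicate 1 or either E15 library, and those of Sst and Nts whichever library was left out. The list was chosen for its values, so it is a description.

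Some members called against the average lie near each other on the chromosome in RefSeq order (GRCm38.p6). Gm14305, Gm14295, Gm14410, Gm14403, Gm14325 and Gm14326, all higher at P3, fall within 18 neighbouring tested genes. Gm14325 was at 192 and 131 TPM in the P3 libraries, 30.7 and 29.6 TPM in those of E15, and 69.5, 50.1 and 39.5 TPM in adult ones. H2-T23, H2-Bl and Gm10499, all lower at P3, fall within 6 neighbouring tested genes, and H2-T23 was at 32.2 and 44.0 TPM, 104 and 129 TPM, and 124, 118 and 97.6 TPM in the same order. Without P3 replicate 1 none of these 9 calls was made, and without E15 replicate 2 that of Gm10499 alone was. The alike symbols may mark near-identical copies, so these values are uncertain, and whether reads were split among copies was not tested.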
